A study of Xenopus laevis with 16 samples.

Results

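The genes described are foxi1.L and foxi4.2.L, 2 forkhead transcription factor genes of the Xenopus laevis ectoderm. They were taken by the gene symbols of the platform annotation. They are 2 of 7531 genes with a probe set of a single symbol. Of the 15491 probe sets tested, 3 are theirs, 1 for foxi1.L and 2 for foxi4.2.L. A further probe set belongs to foxi4.2.S, the homeolog of foxi4.2.L, and is given beside them. The suffixes .L and .S mark the 2 gene copies of this allotetraploid frog. The other 5 genes of the family in current RefSeq (foxi1.S, foxi2.L, foxi2.S, foxi4.1.L and foxi4.1.S) have no probe set with a single symbol and were not analysed here. Both genes were chosen because they were low after foxD5 injection in these same arrays, so every foxD5 value of foxi1.L and foxi4.2.L below is a description with no test.

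FoxI factors act in the non-neural part of the embryonic ectoderm. In Xenopus the product of foxi1, also known as Xema or FoxI1e, promotes epidermal over mesodermal and endodermal fate, and later specifies ionocytes, the acid- and base-secreting cells of the larval skin. BMP signalling favours epidermis, Notch signalling between neighbouring cells sets how many of them become ionocytes or ciliated cells, and Noggin is a secreted protein that binds BMP ligands and blocks them. FoxD5 is a forkhead factor of the early neural ectoderm, encoded by the gene now named foxd4l1.

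Gene expression was measured on 16 single-colour Affymetrix arrays with total RNA from pooled animal caps, the explanted ectoderm of the blastula, in 4 groups with 4 arrays each. Embryos were left uninjected or received foxD5 mRNA at the 2-cell stage, 100 pg in each cell. Caps were cut at stage 8 to 9 and cultured without Noggin or in 200 ng/ml Noggin. The labels call each uninjected sample the siblings of a numbered injected sample, which gives 4 sibling pairs without Noggin and 4 in Noggin. No strain or mutation is labelled, and no group received a control mRNA, so foxD5 cannot be told apart from injection as such. Injected caps without Noggin were harvested between stages 11.5 and 13.0 and caps in Noggin between 11.5 and 12.5, while the uninjected caps without Noggin carry no stage. In Noggin the labelled stages of the injected caps ended later than those of their siblings in pairs 2 and 3 and began later in pairs 3 and 4. A sample held 45 to 171 caps, with 45 in uninjected sample 1 without Noggin, 171 in its injected sibling, and caps described as small in pair 4 in Noggin. The source tissue in the labels contradicts the description of the samples as animal caps, and the descriptions were followed. Separate clutches are not stated for the numbered samples. A p-value therefore reflects the spread of these samples alone, which may be technical, and clutch cannot be told apart from Noggin. Precision is limited by the 16 arrays.

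Signals are the linear values as deposited, and 28.5% of the probe sets had a mean signal under 16, the constant added before logarithms were taken. Probe sets for the injected gene did not separate the groups. The signal of foxd4l1.1.S ran from 38.1 to 134 in injected and from 20.9 to 70.6 in uninjected caps without Noggin, and from 16.1 to 169 and from 11.3 to 255 in Noggin. The signal of foxd4l1.2.L stayed at or under 16.5 on all arrays. Whether these probes match the injected mRNA was not tested.

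foxi1.L was low wherever foxD5 had been injected. In uninjected caps without Noggin its signal was 123, 136, 56.2 and 139 in pairs 1 to 4, a mean of 114 ± 38.9 (SD, n = 4 arrays). In their injected siblings it was 16.3, 7.1, 28.8 and 15.1, a mean of 16.8 ± 8.98 (SD, n = 4). Each injected sample lay below each uninjected one, and pair 3 held both the lowest uninjected and the highest injected value. Such a separation with injected caps below was seen for 1.3% of all probe sets.

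In Noggin the uninjected caps held foxi1.L signals of 104, 165, 25.3 and 27.8, a mean of 80.3 ± 67.0 (SD, n = 4). The injected caps held 13.8, 22.2, 0.92 and 2.50, a mean of 9.86 ± 10.03 (SD, n = 4). The groups again did not overlap, which held for 1.03% of probe sets in this culture. Of the uninjected samples in Noggin, pair 1 lay within and pair 2 above the range without Noggin, and pairs 3 and 4 lay below it. Uninjected pairs 3 and 4 in Noggin (25.3 and 27.8) lay below the injected pair 3 without Noggin (28.8).

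By its first probe set, foxi4.2.L was also lower in each injected sample than in its siblings. In uninjected caps without Noggin the signal of its first probe set was 953, 842, 541 and 1049, a mean of 846 ± 220 (SD, n = 4), and pair 3 stood apart as the lowest. In injected caps it was 301, 331, 334 and 331, a mean of 324 ± 15.4 (SD, n = 4). The groups did not overlap, as for 1.3% of all probe sets in this direction, and the injected samples varied little although their siblings ranged from 541 to 1049. In Noggin the uninjected caps held 622, 463, 359 and 184, a mean of 407 ± 184 (SD, n = 4). Their injected siblings held 215, 187, 129 and 118, a mean of 162 ± 46.3 (SD, n = 4). These last groups overlapped by 1 sample, since uninjected pair 4 (184) lay below injected pairs 1 and 2, but within each pair the injected sample was lower.

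The second probe set of foxi4.2.L gave signals between 0.61 and 35.2 on all arrays, with group means of 14.6, 21.5, 12.8 and 16.1 in uninjected, injected, uninjected Noggin and injected Noggin caps. It lay near the low end of the scale and did not follow the first. Its mean difference between injected and uninjected siblings was 0.22 ± 0.32 on the log2 scale (SD, n = 8 pairs), and only 1 of the 8 differences was negative. The 2 probe sets of this gene disagree, and the values below are those of the first.

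**Figure D1:**
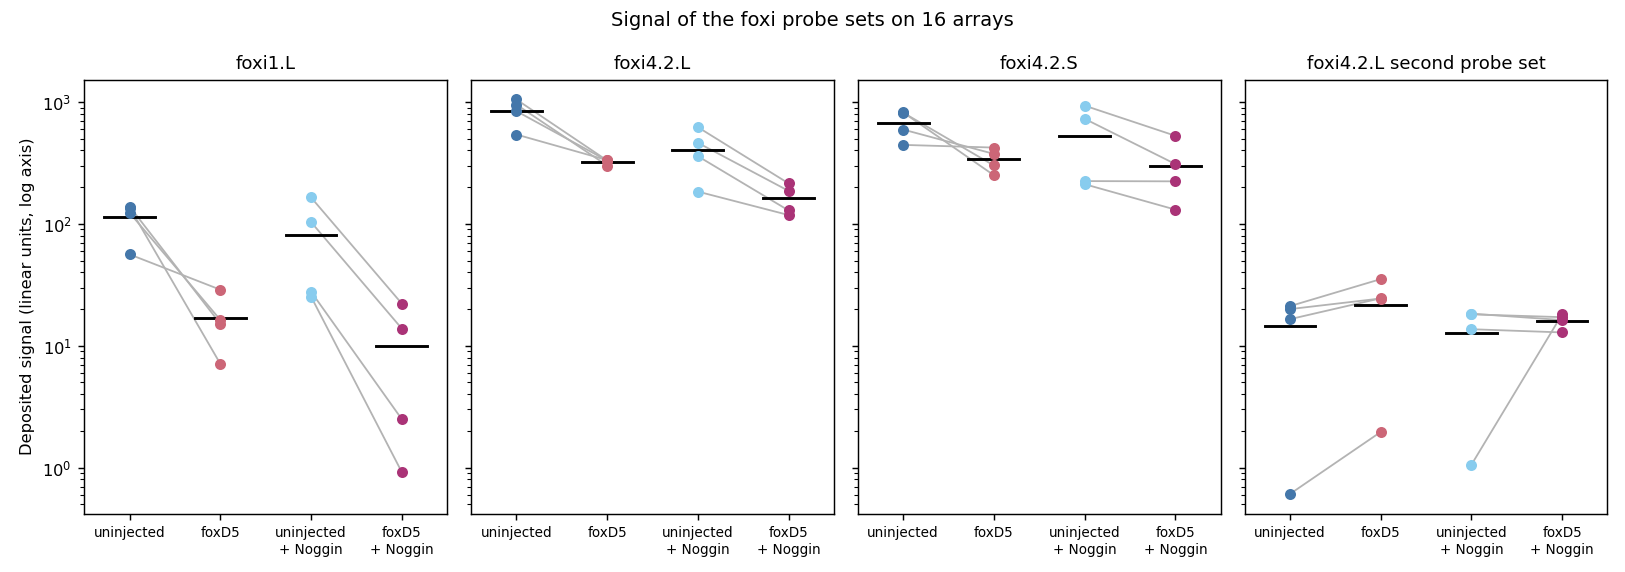
Deposited signal (linear units on a logarithmic axis) of the 4 foxi probe sets on each of 16 arrays, by group; points are arrays, grey lines join siblings, and black bars are the group means (n = 4). For foxi1.L the mean falls from 114 to 16.8 without Noggin and from 80.3 to 9.86 in Noggin, while the second foxi4.2.L probe set stays between 0.61 and 35.2.

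Differences between siblings were taken on the normalised scale, log2(signal + 16) after quantile normalisation, which understates the change of low signals. The foxi1.L differences, injected minus uninjected, were -2.01, -2.83, -0.71 and -2.21 in pairs 1 to 4 without Noggin, a mean of -1.94 ± 0.89 (SD, n = 4). In Noggin they were -1.82, -2.23, -1.35 and -1.22, a mean of -1.66 ± 0.46 (SD, n = 4). All 8 were negative, with a mean of -1.80 ± 0.67 (SD, n = 8), or 3.48-fold lower on this scale. It ranked 2 from the lowest among 15491 mean foxD5 effects. The size depends on the added constant where signals are low: with 1 in place of 16 the mean was -2.93 and with 64 it was -0.97.

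For foxi4.2.L the sibling differences were -1.67, -1.39, -0.65 and -1.57 without Noggin, a mean of -1.32 ± 0.46 (SD, n = 4). In Noggin they were -1.5, -1.16, -1.33 and -0.61, a mean of -1.15 ± 0.39 (SD, n = 4). All 8 were negative here too, with a mean of -1.23 ± 0.40 (SD, n = 8), or 2.35-fold lower, at rank 18 from the lowest. Across all probe sets, 1.36% were lower in 8 of 8 pairs. In the fit over all probe sets foxD5 called 1.37%, and 0.491% in the lower direction, over both cultures (and 0.884% in the higher one), and nothing is read from these shares for genes chosen on this contrast. Without and in Noggin the fit called 0.239% and 0.316% of probe sets.

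The sibling difference was small in the same pair for both genes. Pair 3 without Noggin had the smallest foxi1.L difference of the 8 pairs, and the foxi4.2.L difference of this pair was the second smallest. Uninjected pair 3 also held the lowest foxi1.L and foxi4.2.L signals of the uninjected caps without Noggin. Keratin genes, structural genes of the epidermis, were taken by symbols that start with krt, so krtcap3.L is counted among the 24. Their summed signal was 8177 in uninjected pair 3 without Noggin, against 7197, 13054 and 19689 in the other uninjected samples without Noggin. The mean sibling difference of the keratins was 0.10 in pair 3, -1.09 in pair 1, -0.17 in pair 2 and -0.39 in pair 4, and in Noggin it ran from -0.43 to 0.10. The differences of foxi1.L and foxi4.2.L were -0.61 or lower in pair 3 without Noggin and in pairs 1, 3 and 4 in Noggin, where the keratin mean lay between -0.04 and 0.10. In 12 of the 24 keratin genes the mean signal was under 16, where the log2 scale understates a change. An unchanged share of epidermis is not read from their mean. In RNA of pooled caps, fewer cells that express a gene and less RNA of it per cell cannot be told apart.

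**Figure D2:**
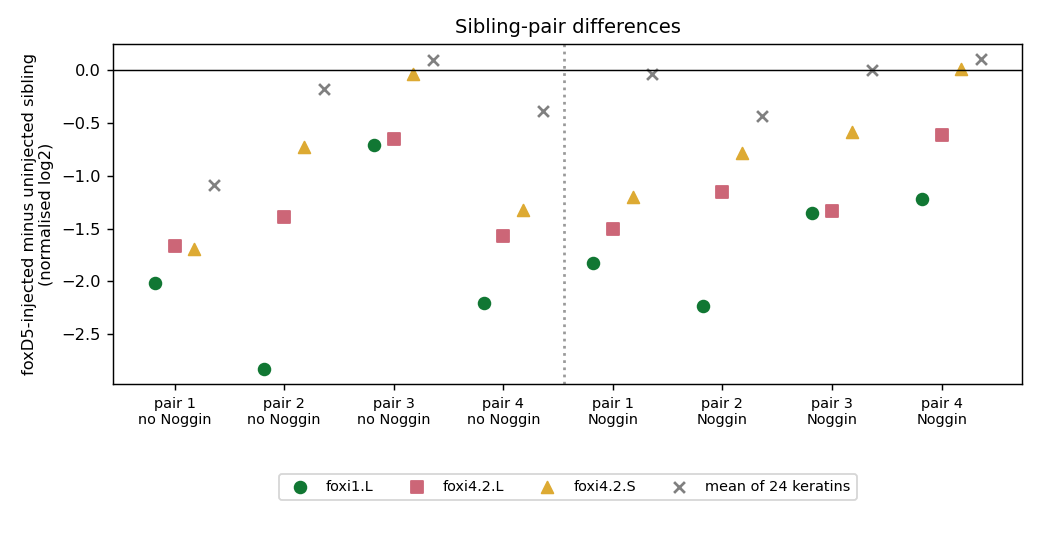
Difference between each foxD5-injected sample and its uninjected siblings (normalised log2) for foxi1.L, foxi4.2.L and foxi4.2.S, with the mean difference of 24 keratin genes (12 with a mean signal under 16) as crosses; each symbol is 1 pair, 4 without and 4 in Noggin. Both L genes (foxi4.2.L by its first probe set alone) are below 0 in all 8 pairs, foxi4.2.S in 7, and the keratin mean runs from -1.09 to 0.10.

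The homeolog foxi4.2.S, which was not among the genes chosen, gave a difference near the threshold. Its signal without Noggin was 821, 594, 445 and 817 in uninjected caps (669 ± 184, SD, n = 4). In injected caps it was 251, 375, 423 and 301 (337 ± 76.4, SD, n = 4), with no overlap, as for 1.3% of all probe sets in this direction. In Noggin it was 729, 934, 212 and 224 (525 ± 364, SD, n = 4) against 310, 528, 131 and 223 (298 ± 170, SD, n = 4), and the groups overlapped. The foxi4.2.S difference was negative in 7 of 8 pairs, for which no share over all probe sets was computed. Its mean foxD5 effect was -0.79 ± 0.18 (SE) and missed the threshold (limma, adjusted p = 0.0596). Without pair 3 lacking Noggin it passed (-0.94, limma adjusted p = 0.0208), as it did on arrays centred on the median, with an intensity trend, with array weights and among probe sets above the median (adjusted p = 0.014 to 0.0445). It lay further from the threshold with no sibling block (adjusted p = 0.602), a random one (adjusted p = 0.118) and 1 as the added constant (adjusted p = 0.24), and missed it without each of the other 7 pairs (adjusted p = 0.0677 to 0.187). Whether the probes of the homeologs read each other's RNA was not tested.

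Noggin gave a comparison other than the foxD5 contrast on which the genes were chosen. It comes from the same arrays, and earlier results of these data were known, so it is no independent test. The mean effect of Noggin over injected and uninjected caps compares 4 pairs in Noggin with 4 other pairs without it and, with groups of equal size, its estimate is uncorrelated with that of the mean foxD5 effect. foxi4.2.L was lower in Noggin. The mean of siblings on the log2 scale was 9.09, 9.22, 8.77 and 9.22 in pairs 1 to 4 without Noggin and 8.55, 8.29, 7.85 and 7.36 in Noggin, with no overlap, which held in this direction for 3.6% of probe sets. The effect was -1.07 ± 0.23 (SE, 95% confidence interval -1.55 to -0.58), with a limma adjusted p = 0.0451 over 15491 probe sets, of which 0.613% passed and 0.2% passed as lower. An exact two-sided permutation test of the 8 pair means gave p = 0.0286, the smallest that 4 against 4 allows.

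The foxi4.2.L call in Noggin is close to the threshold. Leaving out any 1 of the 8 pairs ended it, with adjusted p between 0.0556 and 0.153 and effects between -1.25 and -0.85. It also ended on values as deposited (-1.04, adjusted p = 0.0893), on arrays centred on the median (-0.93, adjusted p = 0.142) and with 1 as the added constant (-1.12, adjusted p = 0.115). Taken separately, the effect was -1.15 ± 0.28 (SE) in uninjected caps (adjusted p = 0.208, where 0.00646% of probe sets passed). In injected caps it was -0.98 ± 0.28 (SE, adjusted p = 0.15, where 0.129% passed). Neither limma value passed. The signals of injected caps in Noggin (118 to 215) nevertheless lay wholly below those of injected caps without it (301 to 334), as for 3.94% of probe sets, while those of the uninjected groups overlapped. The pair lowest in foxi4.2.L, pair 4 in Noggin, is the one with caps labelled as small. The summed keratin signal of uninjected caps was 7197 to 19689 without and 6458 to 22182 in Noggin. For Noggin 0 of 24 keratin genes passed, beside 0.613% of all probe sets, and 12 of the 24 had a mean signal under 16. This count is near the background and does not show that the keratins were unchanged. The part of cap size, stage or clutch in the foxi4.2.L difference cannot be told apart from Noggin.

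foxi1.L did not pass in this comparison. Its pair means were 6.14, 5.68, 5.85 and 6.2 without Noggin and 6, 6.48, 4.82 and 4.81 in Noggin. Pairs 1 and 2 in Noggin thus lay within or above the range of the pairs without it, and pairs 3 and 4 lay below. The effect was -0.44 ± 0.35 (SE, 95% confidence interval -1.17 to 0.29, limma adjusted p = 0.68, exact permutation p = 0.371), an interval that holds both no change and the foxi4.2.L value. foxi4.2.S had a like pattern, with pair means of 8.84, 9.06, 8.80 and 8.99 against 8.91, 9.44, 7.49 and 7.93 and an effect of -0.48 ± 0.34 (SE, limma adjusted p = 0.632, exact permutation p = 0.371). The Noggin effect of foxi4.2.L differed from that of foxi1.L by -0.62 (exact permutation p = 0.114) and from that of foxi4.2.S by -0.59 (exact permutation p = 0.143). A difference between these genes in Noggin was therefore not shown.

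The foxD5 effects without and in Noggin were -1.94 and -1.66 for foxi1.L and -1.32 and -1.15 for foxi4.2.L, and the lowest single signal of both genes was in caps with foxD5 and Noggin together. For foxi4.2.S the difference between cultures was 0.31 ± 0.36 (SE, limma adjusted p = 0.971). In that limma test 0 of 15491 probe sets passed, and 765 had an unadjusted p under 0.05.

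**Figure D3:**
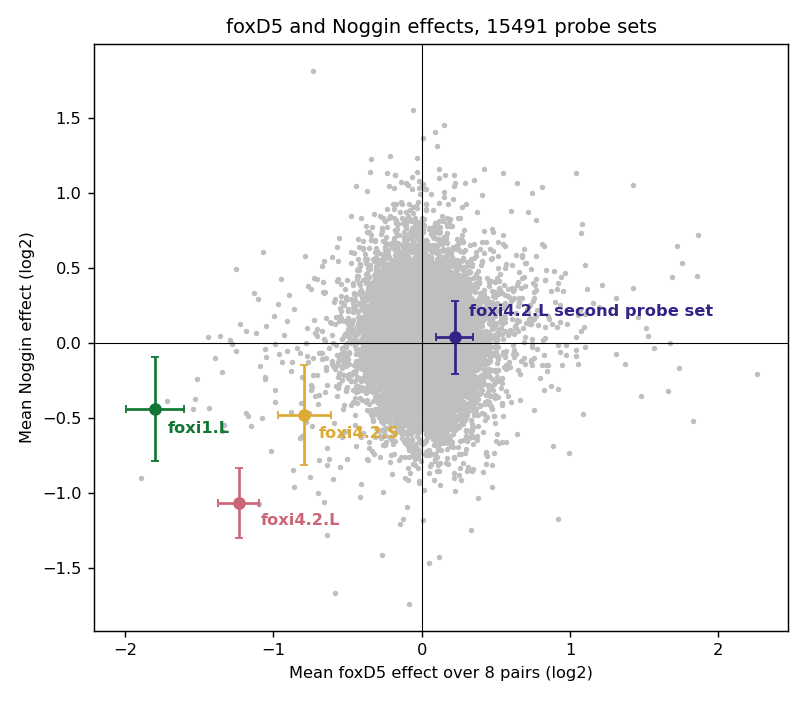
Mean effect of foxD5 over 8 sibling pairs (x axis, log2) against the mean effect of Noggin (y axis, log2) for 15491 probe sets in grey, with the foxi probe sets in colour and their standard errors as bars. foxi4.2.L lies at -1.23 and -1.07, foxi1.L at -1.80 and -0.44, and the second foxi4.2.L probe set near the centre at 0.22 and 0.04.

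The probe sets were also followed across samples. Over the 8 uninjected arrays, foxi1.L and foxi4.2.S varied together (Pearson r = 0.984, exact permutation p = 0.000322, Spearman rho = 0.929, exact permutation p = 0.00223). Adjusted over the 9 relations computed, these exact p-values were 0.00167 and 0.01. The 2 samples farthest from the median were uninjected pairs 3 and 4 in Noggin, and without them r was 0.963 (exact permutation p = 0.00833, n = 6). With the mean of each culture taken out it was 0.983. The share of all probe sets that follow foxi1.L this closely over the 8 arrays was not computed. No link particular to these 2 genes is read from r.

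The relation between foxi1.L and foxi4.2.L themselves did not pass. Over the 8 uninjected arrays r was 0.766 (exact permutation p = 0.0262, adjusted over 3 planned relations p = 0.0786, rho = 0.643), and it rested on the same 2 samples, since r fell to 0.185 without them. Over the 8 injected arrays r was 0.512 (exact permutation p = 0.188, rho = 0.452) and -0.39 without the 2 farthest samples. Neither passed after adjustment. The sibling differences are the values on which both genes were chosen, so their correlations are a description: r was 0.691 for foxi1.L with foxi4.2.L (0.617 without the 2 farthest pairs) and 0.937 for foxi4.2.L with foxi4.2.S (0.858 without the 2 farthest). The relations with foxi4.2.S were added after the data were seen, and all points of a relation share the normalisation of the arrays.

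**Figure D4:**
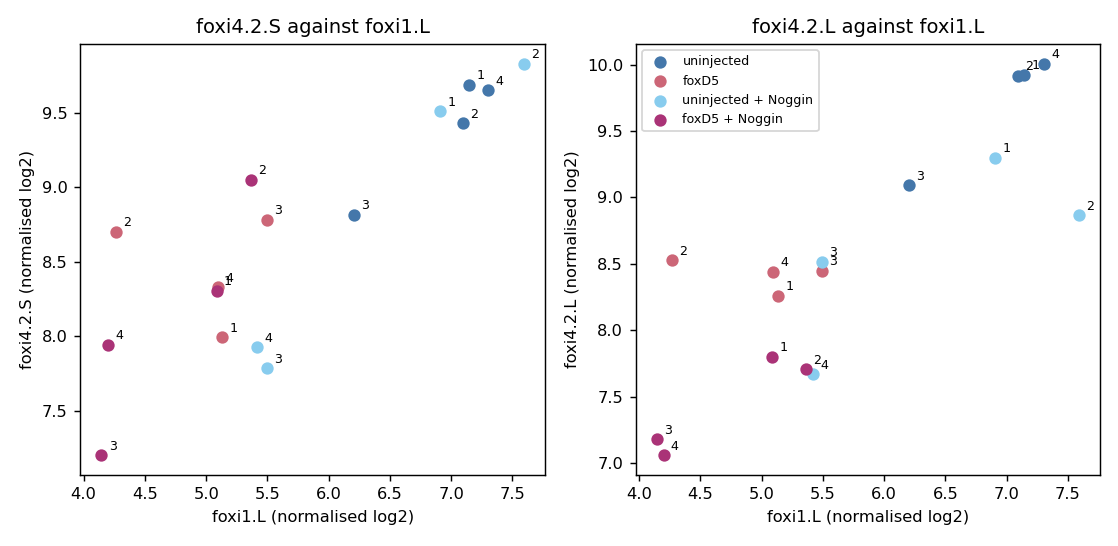
Normalised log2 level of foxi4.2.S (left) and foxi4.2.L (right) against foxi1.L on 16 arrays, coloured by group and numbered by sibling pair. Among uninjected arrays foxi4.2.S rises with foxi1.L (r = 0.984), and for foxi4.2.L the relation (r = 0.766) rests on pairs 3 and 4 in Noggin.

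The genes most like foxi1.L over the 16 arrays were, among 5326 probe sets with 1 symbol and a mean above the median, bmp7.2.L, a BMP ligand gene (r = 0.947), hal.1.L, which encodes histidine ammonia-lyase (r = 0.938), tfap2a.L, an AP-2 transcription factor gene of the epidermis and neural crest (r = 0.936), szl.S and szl.L, which encode the secreted BMP feedback inhibitor Sizzled (r = 0.933 and 0.901), and gata2.L, a zinc finger factor gene of ventral ectoderm and blood (r = 0.892). The list for foxi4.2.L shared tfap2a.L (r = 0.889), szl.S (r = 0.825) and bmp7.2.L (r = 0.806) with it, and held hs3st1.L, a heparan sulfate sulfotransferase gene (r = 0.856), rcn2.L (r = 0.830) and hspa1l.S (r = 0.806). These correlations include the difference between injected and uninjected arrays on which the foxi genes were chosen. With the 4 group means taken out, other genes led: bud13.L, the hyaluronan synthase gene has1.S, top2a.L and sppl3.L for foxi1.L (r = 0.885 to 0.916), and epb41.L, the plakophilin gene pkp2.L, srrm1.S and rhbdd2.S for foxi4.2.L (r = 0.857 to 0.871). None of these is among the genes named first.

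The 6 genes most like foxi1.L all fell with foxD5, which their likeness to a gene chosen as low favours. The change of hal.1.L was -1.72 ± 0.12 (SE, limma adjusted p = 7.09e-05), and its mean signal was 809 in uninjected and 240.2 in injected caps without Noggin, and 775 and 211 in Noggin. The change of bmp7.2.L was -1.53 ± 0.15 (SE, limma adjusted p = 0.000485), from 856 to 252 without and from 689 to 233 in Noggin. Of those like foxi4.2.L, hs3st1.L was at -1.01 ± 0.12 (SE, limma adjusted p = 0.00111) with foxD5, and its change in Noggin was -0.72 ± 0.19 (SE, limma adjusted p = 0.0948). Its mean signal was 162 in uninjected and 79.2 in injected caps without Noggin, and 99.6 and 34.8 in Noggin. These values restate its choice by correlation with foxi4.2.L over the same arrays. The Noggin changes of bmp7.2.L, tfap2a.L, szl.S and szl.L were -0.37, -0.54, -0.47 and -0.58. Those of hal.1.L and gata2.L, the others of the 6 genes most like foxi1.L, were -0.39 and -0.0086. None of the 6 passed (limma adjusted p between 0.408 and 0.997).

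Genes that ionocytes are known for did not pass the test. Of 11 measured ionocyte markers, 0 rose and 0 fell over both cultures, where 1.37% of all probe sets passed, so that a count of 0 among 11 is near the background and sets these genes apart from no others. Their median change was -0.07 against -0.0056 for all probe sets. At an unadjusted p under 0.05 limma gave 2 lower and 1 higher of the 11, and 1792 of all 15491 probe sets. The 11 are the measured copies of a list of 21 symbols, with tfcp2l1 and ca2 each counted as .L and .S. Their summed signal was 1416 to 1826 in uninjected and 1419 to 1971 in injected caps without Noggin, and 1299 to 1953 and 1238 to 2164 in Noggin, so the groups overlapped. Most of this sum came from atp1b2.L, ca12.L, tfcp2l1.S and tfcp2l1.L, with means of 477, 436, 339 and 203 in uninjected caps without Noggin. The markers with the smallest p were ca12.L, a carbonic anhydrase gene (-0.39 ± 0.15 SE and an adjusted p = 0.317 by limma, with 7 of 8 pairs lower), ubp1.L (-0.53 ± 0.21 SE, adjusted p = 0.358, 5 of 8) and atp1b2.L, a sodium pump subunit gene (0.36 ± 0.15 SE, adjusted p = 0.358). Without pair 1 lacking Noggin ca12.L passed at -0.54 (limma adjusted p = 0.0178), the 1 marker that did. That fit called 393 of the 15491 probe sets, against 213 in the main fit. Without any other pair ca12.L did not pass (limma adjusted p = 0.424 to 0.538). In 5 of the 11 the mean signal was under 16: atp6v0a4.L, ca2.L, rhbg.S, atp6v1b1.L and ca2.S, which include the proton pump subunits of the proton-secreting ionocyte. No ionocyte identity of these caps can be read from the markers, and the 2 forkhead genes are therefore called by their symbols. Of 16 genes for subunits of the proton pump, a pump that all cells use, 0 passed (1 lower and 1 higher at an unadjusted limma p under 0.05), with a median of 0.03. Not every one of these subunits is used by all cells.

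Markers of the other cells of the larval skin gave 0 calls as well, again beside 1.37% of all probe sets, and at an unadjusted p under 0.05 limma gave 1 lower among the ciliated cell, 0 among the secretory cell and 2 lower among the keratin genes, beside the same 1792 of 15491. Among 13 ciliated cell genes the median was -0.17, and cetn4.L, ccno.L and rfx2.S were at -0.34 ± 0.15, -0.35 ± 0.17 and -0.24 ± 0.13 (SE, limma adjusted p = 0.427 to 0.514), each lower in 6 of 8 pairs. Among 6 mucus and small secretory cell genes the median was -0.06. ctrb1.L was at 0.33 ± 0.18 (SE, lower in 2 of 8 pairs), agr2.S at -0.46 ± 0.41 (SE, 3 of 8) and itln1.L at -0.26 ± 0.27 (SE, 4 of 8). None of these passed (limma adjusted p = 0.517 to 0.767). Of 24 keratin genes 0 passed, with a median of -0.12 and values down to -1.39 ± 0.47 (SE, limma adjusted p = 0.243) for krt70.L. The mean signal was under 16 in 6 of the 13 ciliated cell, 3 of the 6 secretory cell and 12 of the 24 keratin genes. No lack of change in these cells can be read from the counts of 0.

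Transcription factors of the non-neural ectoderm, the foxi genes not included, held several that fell. Of 30 measured, 8 fell and 0 rose, beside 0.491% lower and 0.884% higher of all probe sets, with a median of -0.45, and 22 did not pass. grhl3.L was at -0.95 ± 0.12, klf17.L at -1.11 ± 0.14 and klf2.S at -0.99 ± 0.13 (SE, limma adjusted p = 0.00189 to 0.0023), each lower in 8 of 8 pairs. The others were tfap2a.L and gata2.L and, named after their values were seen, msx1.L, tbx3.S and dlx2.L. The homeologs msx1.S (-0.40), tbx3.L (-0.31) and dlx2.S (-0.26) did not pass (limma adjusted p = 0.52 to 0.68). The mean dlx2.L signal was low, 21.6 in uninjected and 3.96 in injected caps without Noggin, and 14.2 and 6.48 in Noggin. Several of the 8 falls were known when the list was written, and they are no independent support. The list also holds hesx1.L, hesx1.S and vax2.L, which did not pass, and not every member is particular to non-neural ectoderm. For Noggin, where 0.613% of all probe sets passed, 1 of the 30 rose, 0 fell and 29 did not pass, with 18 below 0 and a median of -0.10. The 1 that rose was ventx1.1.L, a homeobox gene of ventral fate, at 1.06 (limma adjusted p = 0.0451), named after its value was seen, and its other probe set was at -0.24 (limma adjusted p = 0.801). The summed signal of the 30 was 4493 to 9298 in uninjected and 2671 to 3746 in injected caps without Noggin, and 3114 to 11270 and 2101 to 5482 in Noggin, where the groups overlapped.

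In the BMP pathway, upstream of epidermal fate, 4 of 45 measured genes fell, 1 rose and 40 did not pass, beside the same 0.491% lower and 0.884% higher, with a median of -0.07. bmp7.2.L, szl.L (-1.35 ± 0.19 SE, limma adjusted p = 0.00453) and szl.S (-1.18 ± 0.20 SE, limma adjusted p = 0.0143) fell. The other, smad7.L, an intracellular inhibitor of the pathway, and the 1 that rose, gdf3.S, were named after their values were seen, at -0.72 and 0.78. gdf3.S was counted because the list holds it, and its rise is not read as a change of BMP signalling. For Noggin, which acts on this pathway, 1 of the 45 passed, as higher, beside 0.613% of all probe sets, and the median was -0.04. It was the BMP receptor gene bmpr1a.L at 0.80, named after its value was seen, and its homeolog bmpr1a.S was at -0.20 and did not pass.

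In the Notch pathway 2 of 23 genes rose and 0 fell, beside 0.884% higher and 0.491% lower of all probe sets, with a median of 0.02. They encode hairy-related repressors: hes7.1.L rose by 1.83 ± 0.36 (SE, limma adjusted p = 0.028) and hes2.L by 0.71 ± 0.12 (SE, limma adjusted p = 0.015). Each was higher in 8 of 8 pairs, a direction for which no share over all probe sets was computed. By culture, hes2.L was at 1.02 without Noggin (limma adjusted p = 0.042) and at 0.41 in Noggin (limma adjusted p = 0.62). That difference between cultures did not pass (limma adjusted p = 0.926). The mean hes2.L signal was 53.7 in uninjected and 121 in injected caps without Noggin, and 88 and 126 in Noggin. No change of Notch signalling is read from these rises.

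Most genes of the germ layer lists did not pass, and a few did. The mesoderm list had 27 of 35 members that missed the threshold, 5 higher and 3 lower, with a median of 0.08, beside 0.884% higher and 0.491% lower of all probe sets, and 2 of the falls are szl.L and szl.S, which are also in the BMP list. Rises were led by foxb1.S (1.86 ± 0.24 SE) and fgf8.L (1.85 ± 0.19 SE). Of 25 genes in the endoderm list 2 rose, vegt.L (1.72 ± 0.19 SE) and foxa4.L (0.76 ± 0.11 SE), and 23 did not pass. Their homeologs vegt.S (0.40) and foxa4.S (0.22) were among those that did not. Not every member of these lists is particular to its germ layer, and no germ layer identity is read from these rises. The summed mesoderm signal was 608 to 1111 in uninjected and 813 to 1380 in injected caps without Noggin, and 571 to 895 and 1090 to 1347 in Noggin. The summed endoderm signal was 430.5 to 878 and 819 to 1166 without Noggin, and 500.3 to 1024 and 789 to 1842 in Noggin. In 23 of the 35 and 20 of the 25 the mean signal was under 16, among them myod1.L, myf5.L, sox17a.L and mixer.L, and none was below 1 on every array. foxa4.L, which rose, is also among these low genes. Of 32 neural genes, beside the same shares, 2 rose (elavl3.L at 0.84 ± 0.17 SE and tubb2b.S at 0.76 ± 0.16 SE) and 1 fell (irx1.L at -0.71 ± 0.11 SE). elavl3.L was at 0.40 without and 1.28 in Noggin, and tubb2b.S at 0.44 and 1.08. These differences between cultures did not pass (limma adjusted p = 0.926 for each gene). The mean elavl3.L signal was low, 16.1 in uninjected and 26.8 in injected caps without Noggin, and 4.52 and 33.6 in Noggin. The part of these cell types in the foxi values was not tested.

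**Figure D5:**
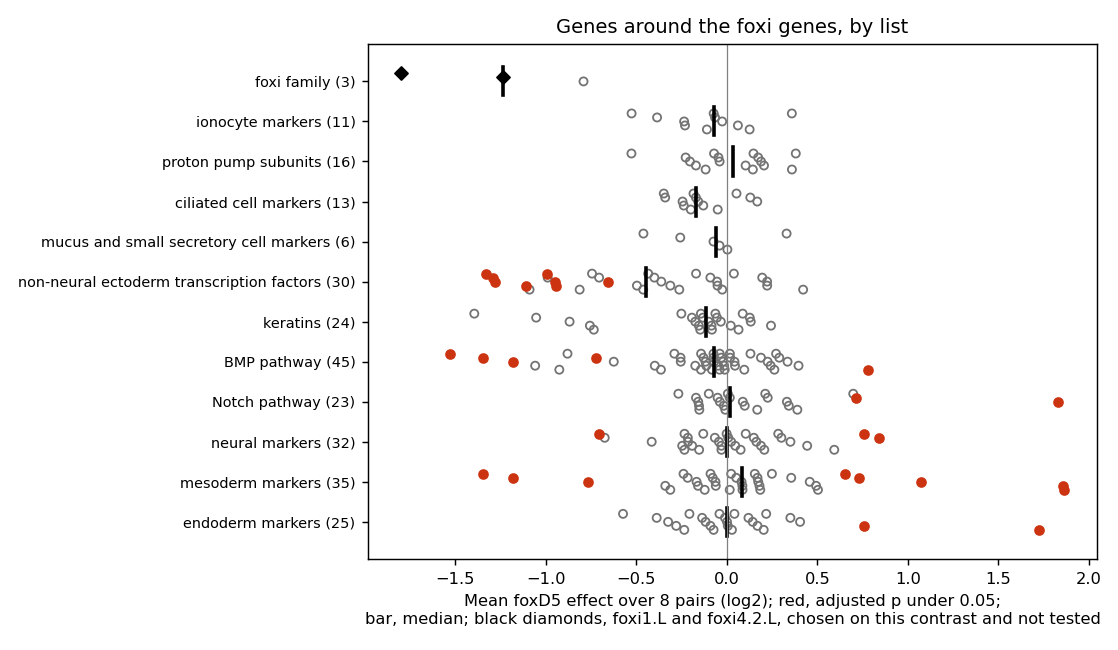
Mean foxD5 effect over 8 sibling pairs (log2) of each measured gene, by list, with the number of genes in brackets; filled red circles passed an adjusted p of 0.05, open circles did not, vertical bars are list medians, and black diamonds are foxi1.L and foxi4.2.L, chosen on this contrast and not tested. Of the non-neural ectoderm transcription factors 8 of 30 fell, and 0 of 11 ionocyte markers passed.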

How the data were processed

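The authors' deposited values are intensity, 1 linear signal per probe set and array, and the software that made them is not given in the sources used here. Without the lowest and highest 2% of each array, the mean signal was 150.02 on average over the 16 arrays. Signals were taken as log2(signal + 16). The medians of the arrays then spanned 5.79 to 6.35, more than the 0.2 allowed, and quantile normalisation followed. The file holds 15611 probe sets, of which 120 are Affymetrix controls and were not tested. The platform annotation gave 1 symbol for 9304, several for 195 and none for 5992, and 9227 symbols were matched to RefSeq (2 renamed). Per gene of a list the probe set with the highest mean was used.

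Fits used R 4.3.3 and limma 3.58.1 (two-sided, Benjamini-Hochberg over 15491 probe sets, threshold 0.05). The foxD5 fits held each sibling pair as a fixed block, which leaves 6 residual degrees of freedom. The Noggin fits, on group means, took the pair as random (estimated correlation 0.364, residual degrees of freedom 12), since numbers are not linked across cultures. The pairing comes from the labels, where 1 injected sample per culture lacks a number and was given the number 1. Siblings' deviations from their group means correlated positively in 7 pairs (0.203 to 0.670) and at -0.12 in pair 1 without Noggin.

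The genes, lists and tests were chosen with earlier results of these data known. Named genes are the foxi probe sets, the 3 of each other list with the smallest foxD5 p, and per foxi gene the 6 most correlated probe sets over 16 arrays and the 4 over deviations from group means. Other names are said to be later choices. Alternatives were other scalings, added constants of 1 and 64, a filter on the mean, an intensity trend, array weights, other blocks, only the 8 arrays of a comparison, and leaving out each pair. Fits were tested on simulated data. No sequences are printed, as none were given.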

Additional observations from a re-analysis of the deposited data

Results flagged for a closer look

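The 220 groups of 4 arrays looked at were compared on the normalised log2 scale. In 7 of them, 1 array lay so far from the other 3 that its gap to the nearest exceeded the critical value for 4 samples. Chance gives about 5% of groups. Among the foxi probe sets this held for foxi4.2.L in uninjected caps without Noggin. Pair 3 was at 9.09 on that scale and the other 3 lay between 9.92 and 10.01, with signals of 541 against 842 to 1049. Numbers in brackets below are deposited signals, on which an array need not stand apart. The others were single arrays of genes named beside them: atp6v1f.L in uninjected pair 1 without Noggin (94.8), hs3st1.L in the same sample (227), ctrb1.L in uninjected pair 1 (18.2) and injected pair 4 (24.01) in Noggin, and pkp2.L and srrm1.S in injected pair 2 without Noggin (316 and 473).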

How the results depend on the processing

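No result changed direction past its threshold under any alternative run. The foxD5 values of foxi1.L and of the first foxi4.2.L probe set were negative in all of them, while the second foxi4.2.L probe set stood at 0.22 in the main fit. The cause of the changes below was not tested. The foxi1.L effect moved with the added constant: with 1 it was -2.87 without Noggin, -3.00 in Noggin and -2.93 over both, and with 64 it was -0.86 in Noggin and -0.97 over both. Leaving out a pair gave -2 to -1.65 over both cultures for foxi1.L and -1.35 to -1.18 for foxi4.2.L. The probe set of foxi1.L is below the median level and has no value among the probe sets above it. The Noggin call of foxi4.2.L ended on values as deposited (-1.04), on arrays centred on the median (-0.93), with a constant of 1 (-1.12) and without any 1 pair (-1.25 to -0.85). It held with a constant of 64, the filter on the mean, the intensity trend and array weights. The exact permutation p was 0.0286 under each scaling and constant. That is the smallest p that 4 against 4 allows, so its constancy adds no support. The call also held with no replicate block (limma adjusted p = 0.0116), which counts siblings as independent samples. The same went for the replicate block by number across cultures (limma adjusted p = 0.00713), which links pairs that the labels do not link. Neither of these fits matches the design, and no support is drawn from them. For injected arrays the correlation of foxi1.L and foxi4.2.L was -0.39 without the 2 farthest samples.

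The number of probe sets called varied more. Without Noggin foxD5 called 37, against 0 with a constant of 1, 92 with the trend, 1 with no replicate block, 0 from only the 8 arrays, and 7 to 38 without 1 pair. In Noggin it called 49, against 1 with a constant of 1, 78 with the trend, 99 with weights, 3 with no replicate block, and 5 to 61 without 1 pair. Over both it called 213, against 57 with a constant of 1, 67 with no replicate block, and 92 to 393 without 1 pair. In uninjected caps Noggin called 1, against 0 and 4 with constants of 1 and 64, 2 with no replicate block, 2 with the replicate block by number, 0 from only the 8 arrays, and 0 to 2 without 1 pair. In injected caps it called 20, against 7 on values as deposited, 1 and 193 with the constants, 96 above the median, 62 with the trend, 107 with weights, 63 with the replicate block by number, 0 from only the 8 arrays, and 2 to 19 without 1 pair. Over both it called 95, against 31 on values as deposited, 35 on centred arrays, 6 and 279 with the constants, 157 with weights, 410 with no replicate block, 622 with the replicate block by number, and 6 to 64 without 1 pair. Of the 11 ionocyte markers 0 were called over both cultures, and 0 to 1 without 1 pair.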
